A study of Mus musculus with 6 samples.

Results

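A set of 10 genes of the BCL2 family was followed in CD4+ T cells with and without the histone deacetylase HDAC1. They are the 10 genes listed by name for this description, out of 55536 genes in the deposited count table, and all 10 were among the 15519 genes with enough reads to be tested. The Bcl2a1 copies Bcl2a1a, Bcl2a1b and Bcl2a1d and the genes Bcl2, Bcl2l1 and Mcl1 are antiapoptotic, Bcl2l11 and Bid encode BH3-only proteins, and Bax and Bak1 encode effectors. The 3 Bcl2a1 copies were set against the 7 other members.

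The family decides whether the outer membrane of mitochondria is opened, the step that releases cytochrome c and commits a cell to apoptosis. Bax and Bak1 encode the proteins that form the openings, antiapoptotic members hold these proteins and the BH3-only proteins in check, and BH3-only proteins relay death signals. Activated T cells are known to induce A1, the protein that the Bcl2a1 genes encode, through antigen receptor and NF-kB signalling, and A1 protein is short-lived.

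Messenger RNA was measured in 6 libraries of C57BL/6 donor T cells with the 2D2 transgene, which encodes a receptor for a peptide of myelin oligodendrocyte glycoprotein. HDAC1-cKO cells (genotype 2D2-Hdac1fl/fl-Cd4-Cre+, 3 libraries) carried floxed Hdac1 alleles and Cre driven by the Cd4 promoter, which is active from T cell development in the thymus on, while WT cells (2D2-Hdac1fl/fl-Cd4-Cre-, 3 libraries) had the same floxed alleles without Cre. An effect of Cre itself cannot be told apart from the loss of HDAC1, nor can differences that predate activation from later ones. Naive CD45.2+ donor cells went into CD45.1+ recipients, which were immunised with the MOG peptide in complete Freund's adjuvant after 18 hours. After another 4 days, 500 donor 2D2+ CD4+ cells were sorted from the popliteal lymph nodes of 2 pooled mice for each library. All libraries therefore come from immunised mice.

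Library totals ran from 19956153 to 55900237 counts, with the WT libraries the deepest. Hdac1 stood at 14.7 to 17.2 CPM (counts scaled to a common library size) in HDAC1-cKO and 234 to 244 CPM in WT, so each library matched its label. HDAC1-cKO replicate 2 stood apart: over 10890 genes, its departures from the 6-library mean followed GC content with r = 0.543, against -0.254 to -0.047 in the other 5. Genes are not independent replicates. Its mitochondrially encoded share was 0.922%, against 1.34 to 1.67% elsewhere. Results that rest on it are given with and without it. In bulk samples, fewer cells that use a gene and less of its RNA per cell cannot be told apart.

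The Bcl2a1 copies share so much sequence that their reads cannot always be assigned to 1 of them, so their sequences come before their values. All lie on chromosome 9 of GRCm38: Bcl2a1d (ENSMUSG00000099974) at chr9:88723285-88731914 on the minus strand, and Bcl2a1a (ENSMUSG00000102037) at chr9:88956900-88962419 and Bcl2a1b (ENSMUSG00000089929) at chr9:89199209-89207827 on the plus strand. Each has a coding sequence of 516 bases in GENCODE M21, and pairs of copies are identical at 97.9 to 98.8% of it. The copies do not all agree at 12 positions, of which 6 lie in the first 60 coding bases. No other stretch of that length holds more, so those 60 bases are shown, with the differing positions in capitals, 5′ to 3′.
Bcl2a1a: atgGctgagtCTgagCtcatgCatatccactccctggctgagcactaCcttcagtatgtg
Bcl2a1b: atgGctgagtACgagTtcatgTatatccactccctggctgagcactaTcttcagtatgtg
Bcl2a1d: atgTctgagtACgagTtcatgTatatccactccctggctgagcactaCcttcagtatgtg
Coding bases 95 to 311, a run of 217 bases, are identical in all 3, and a 50-base read from inside that run fits every copy. Of the 50-base stretches of its transcript, 31.0% in Bcl2a1a, 20.8% in Bcl2a1b and 20.5% in Bcl2a1d occur in no other annotated transcript. Bcl2a1b also shares 49.1% of its exon bases with Gm29094, an annotated gene on the same strand that is listed at 0 counts in every library. How reads that fit several copies were counted is not given in the sources used here, so the level of each copy is uncertain. Their sum does not depend on how such reads were divided among the copies, but it would lack any reads that were discarded for fitting several.

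The copies also resemble each other upstream, and these stretches are shown as a description only. Sequences are from RefSeq's promoter windows (GRCm38.p6), cut before the first exon that GENCODE M21 gives each gene: chr9:88956670-88956899 (plus strand) for Bcl2a1a, chr9:89199023-89199208 (plus strand) for Bcl2a1b and chr9:88731915-88732100 (minus strand) for Bcl2a1d. Capitals mark matches on either strand to TGANTCA, the letters of an AP-1 site, and to GAGGAAGT, letters of an ETS site of the PU.1 type.
Bcl2a1a: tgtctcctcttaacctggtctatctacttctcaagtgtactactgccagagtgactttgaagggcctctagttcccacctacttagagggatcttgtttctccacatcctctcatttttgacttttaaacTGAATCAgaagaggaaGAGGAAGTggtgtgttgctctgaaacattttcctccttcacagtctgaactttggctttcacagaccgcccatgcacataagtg
Bcl2a1b: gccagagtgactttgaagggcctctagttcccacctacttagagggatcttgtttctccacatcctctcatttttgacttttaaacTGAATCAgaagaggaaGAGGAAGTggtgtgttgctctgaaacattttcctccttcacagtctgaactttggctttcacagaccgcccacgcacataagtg
Bcl2a1d: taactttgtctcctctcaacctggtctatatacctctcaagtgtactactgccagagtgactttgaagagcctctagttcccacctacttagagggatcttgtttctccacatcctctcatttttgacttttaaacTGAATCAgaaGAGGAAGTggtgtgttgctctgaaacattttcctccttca
Aligned stretches were identical at 99.5% of 186 bases between Bcl2a1a and Bcl2a1b and at 97.8% of 180 bases between Bcl2a1a and Bcl2a1d. Each of the 3 windows held both matches. Of 32851 windows of 230 bases, the length shown for Bcl2a1a, 2.17% held the ETS letters and 6.34% the AP-1 letters, and at 186 bases, the length shown for the other copies, the shares were 1.6 and 5.09%. Copies of 1 ancestral sequence are not independent matches. The core letters of an NFAT site, GGAAA, were in all 3 windows and in 46.4 to 52.6% of all windows of these lengths. Those of a GC box, GGGCGG, were in the windows of Bcl2a1a and Bcl2a1b and in 22 to 29.8% of all windows. The window of Bcl2a1d ends 7 bases after its NFAT letters, against 51 in Bcl2a1a and Bcl2a1b. It therefore stops before the place of the GC box, and its lack of these letters says nothing about that place. Letters of a kB site, of a STAT site (TTCNNNGAA) and TGACG were in none of the 3, which says only that these letters are not in these windows. No factor's binding was measured.

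Transcripts of all 3 Bcl2a1 copies were lower without HDAC1. The copies fell to between 37.5 and 38.9% of their WT levels, and their summed counts, treated as 1 gene, fell 2.62-fold. No other member passed the test. Of the 10 members, 3 were called lower and 0 higher (edgeR quasi-likelihood test, two-sided, Benjamini-Hochberg adjusted p under 0.05 over all tested genes). These 3 are the Bcl2a1 copies, which share most of their sequence and are not independent of each other. Among all tested genes 0.992% were called lower and 0.979% higher, 1.97% in all, and the members were named with these results known. Without adjustment, 2 members, Bax and Bid, had a higher level at an edgeR p under 0.05, as did 8.62% of all tested genes. At the same limit 6 members, the 3 copies among them, had a lower level, as did 8.39% of all tested genes. DESeq2 called the same 2 higher and 4 members lower, beside 5.05% higher and 4.76% lower among all genes to which it gave an adjusted p. Limma-voom called these 2 higher and the 3 copies lower, beside 4.96 and 5.28% of all tested genes.

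**Figure D1:**
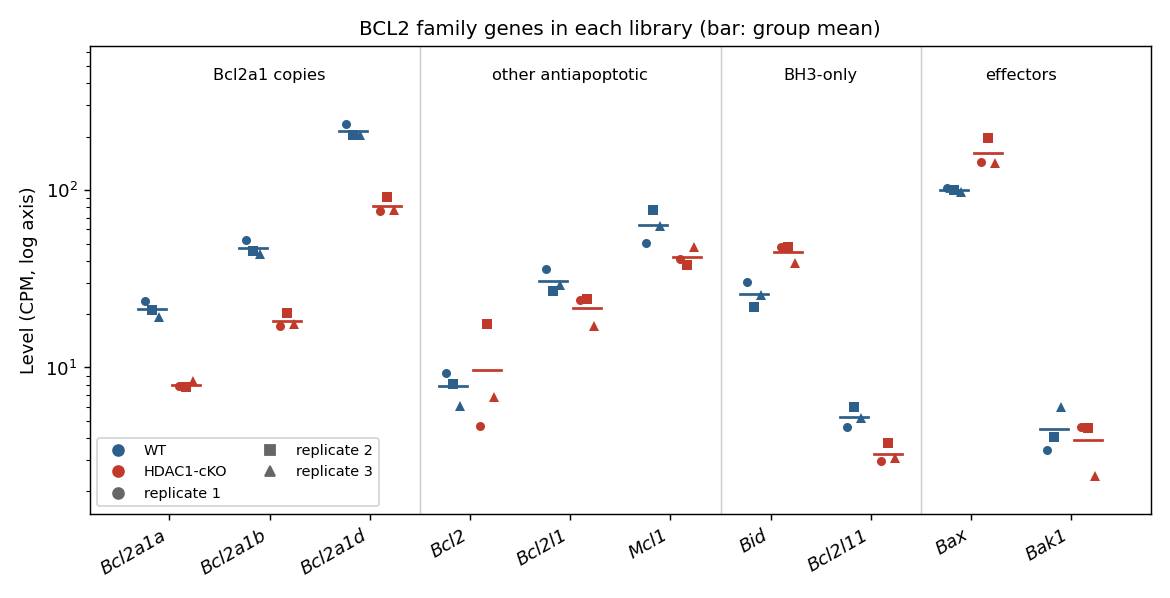
Level of each member in every library, in CPM on a log axis, with WT in blue, HDAC1-cKO in red, symbols for replicates and bars for group means. The 3 Bcl2a1 copies, Bcl2l1, Mcl1 and Bcl2l11 are lower in every HDAC1-cKO library than in any WT library. Bax and Bid are higher in every one, and Bcl2 is high in HDAC1-cKO replicate 2 only.

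Bcl2a1d, the copy with most counts, stood at 76.1, 92.0 and 77.4 CPM in HDAC1-cKO replicates 1, 2 and 3 and at 236, 205 and 205 CPM in WT replicates 1, 2 and 3. The highest HDAC1-cKO library was thus below every WT library. The means were 81.8 ± 8.82 and 215 ± 17.8 CPM (SD, n = 3 libraries per group), a log2 fold change of -1.40 ± 0.12 (standard error, edgeR adjusted p = 0.00391). Bcl2a1b stood at 17.2, 20.2 and 17.6 CPM in HDAC1-cKO against 52.3, 45.5 and 43.8 CPM in WT. Its log2 fold change was -1.36 ± 0.14 (standard error, edgeR adjusted p = 0.00694). In these 2 copies, HDAC1-cKO replicate 2 was the highest of its group and WT replicate 1 the highest of all.

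Bcl2a1a, the copy with fewest counts, stood at 7.88, 7.73 and 8.43 CPM in HDAC1-cKO against 23.6, 21.2 and 19.2 CPM in WT. Here the HDAC1-cKO libraries lay within 1 CPM of each other, and again none reached a WT library. The log2 fold change was -1.41 ± 0.16 (standard error, edgeR adjusted p = 0.0119). Leaving out HDAC1-cKO replicate 1, HDAC1-cKO replicate 3 or WT replicate 2 ended the Bcl2a1a call (edgeR adjusted p = 0.0581, 0.0668 and 0.0601). For Bcl2a1b the same happened on leaving out HDAC1-cKO replicate 3 (edgeR adjusted p = 0.0624).

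The sum of the copies was 101, 120 and 103 CPM in HDAC1-cKO against 312, 272 and 268 CPM in WT. With the 3 copies replaced by this sum, the log2 fold change was -1.39 ± 0.12 (standard error, 95% interval -1.66 to -1.12, edgeR adjusted p = 0.00382). Without any 1 library it ran from -1.48 to -1.32, with edgeR adjusted p from 0.00254 to 0.0346.

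**Figure D2:**
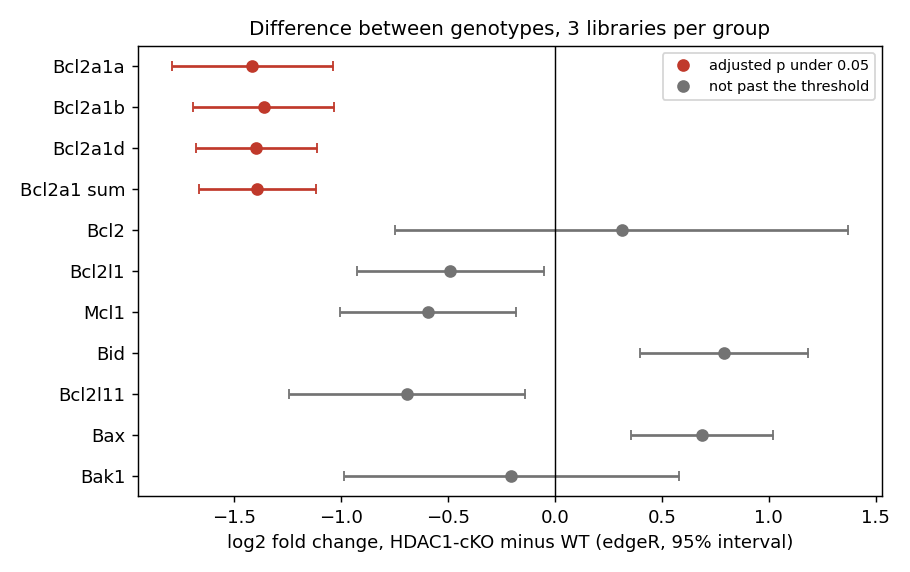
Log2 fold change of each member and of the summed Bcl2a1 copies, HDAC1-cKO minus WT, from edgeR with 95% intervals, red where the adjusted p is under 0.05. The copies and their sum lie between -1.41 and -1.36. The intervals of Bid and Bax lie above 0 and those of Mcl1, Bcl2l1 and Bcl2l11 below 0, all without passing the threshold over all genes.

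How the deposited counts were split between the copies hardly differed between libraries. This split also depends on how reads that fit several copies were counted, which is not given. Bcl2a1d took 74.9 to 76.7% of the summed counts, Bcl2a1b 16.4 to 17.03% and Bcl2a1a 6.45 to 8.15%. The mean share of Bcl2a1d was 75.6 ± 0.992% in HDAC1-cKO and 75.9 ± 0.511% in WT (SD, n = 3), so the groups differed by less than the spread between libraries. Bcl2a1d has 167 such 50-base stretches of its own, close to the 160 of Bcl2a1b and fewer than the 239 of Bcl2a1a. Divided by these numbers, WT means were 129 CPM per 100 own stretches for Bcl2a1d, 29.5 for Bcl2a1b and 8.93 for Bcl2a1a, which ranks the copies as the counts do. The division is apt only if reads that fit several copies were discarded, which is not known.

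**Figure D3:**
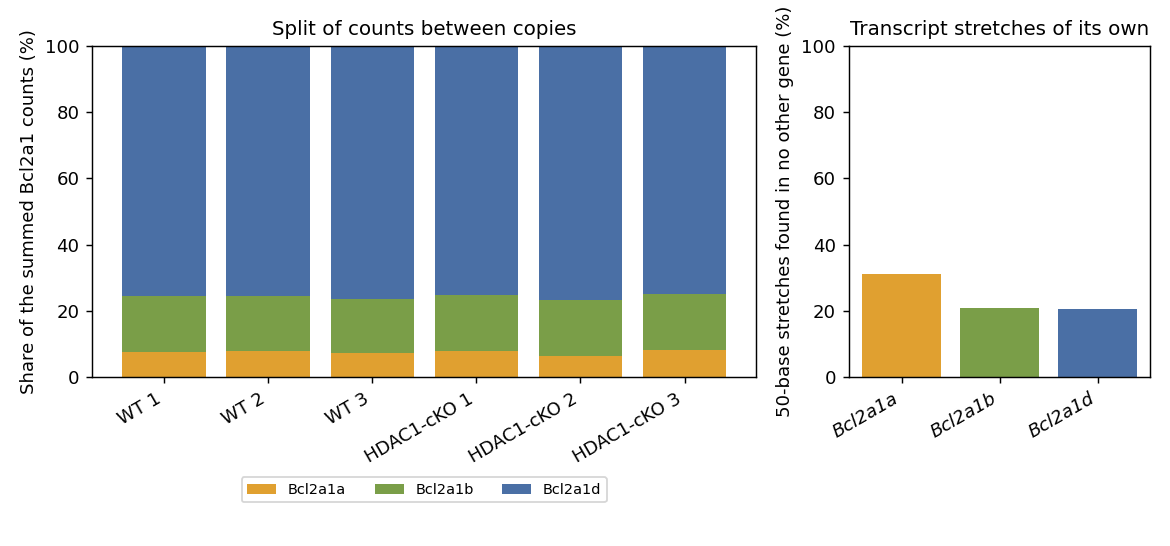
Left, share of the summed Bcl2a1 counts that each copy took, in percent, in each library. Right, share of each copy's 50-base transcript stretches that occur in no other annotated transcript, in percent: the split is nearly the same in all 6 libraries, and each copy has at most 31.0% of stretches to itself.

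A further copy, Bcl2a1c, whose annotated coding sequence is shorter (384 bases), is no member but belongs beside them. It stood at 0.392 to 0.613 CPM in HDAC1-cKO against 1.09 to 1.23 CPM in WT, with 8 to 63 counts per library. Its groups did not overlap, and its log2 fold change was -1.12 ± 0.44 (standard error, edgeR adjusted p = 0.24).

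Bcl2a1 is also expressed by myeloid and mast cells, so markers of other cell types were read in these sorted cells. All 6 neutrophil markers stayed under 1 CPM in every library, and their summed level was 0 to 0.161 CPM in HDAC1-cKO against 0.234 to 0.382 CPM in WT, without overlap. Of the mast cell and basophil markers, Fcer1a was at 0 and Cpa3 and Mcpt8 were under 1 CPM in all libraries, and the list's sum was 1.96 to 8.08 CPM in HDAC1-cKO against 2.21 to 8.08 CPM in WT, nearly all from Kit. For monocytes and macrophages, Csf1r and Cd14 were at 0 throughout, and the summed level of 6 markers was 2.09 to 4.55 CPM in HDAC1-cKO against 3.30 to 24.9 CPM in WT, led by Lyz2 in every library except HDAC1-cKO replicate 1. Among dendritic cell markers Flt3 was at 0, and the sum of 6 was 34.0 to 91.6 CPM in HDAC1-cKO against 25.4 to 73.6 CPM in WT, led by H2-Ab1 in every library except WT replicate 1, where Xcr1 was slightly higher. Of these, Xcr1 stood at 1.55 to 4.78 CPM in HDAC1-cKO against 9.64 to 11.3 CPM in WT, without overlap and not called. Summed Bcl2a1 itself had means of 108 ± 10.2 CPM in HDAC1-cKO against 284 ± 24.2 CPM in WT (SD, n = 3). The part of the cells behind Lyz2, Xcr1, H2-Ab1 and Kit in the Bcl2a1 difference was not tested. B cell markers (4 genes) summed to 32.3 to 62.3 CPM in HDAC1-cKO against 15.9 to 39.5 CPM in WT, and of the NK cell markers Ncr1 and Klra8 were at 0 in all libraries, while Klrb1c made up the sum of 0.686 to 2.52 CPM in HDAC1-cKO against 2.28 to 3.38 CPM in WT. The 2 CD8 markers summed to 65.7 to 72.3 CPM in HDAC1-cKO against 45.4 to 59.4 CPM in WT, nearly all from Cd8b1. The 7 T cell markers, each at 38.2 CPM or more in every library, summed to 5519 to 6511 CPM in HDAC1-cKO against 6348 to 7555 CPM in WT, and Cd3e, at 38.2 to 51.0 CPM against 105 to 136 CPM, was the 1 among them called lower.

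No other antiapoptotic member passed the test. Mcl1 (ENSMUSG00000038612, chr3:95658788-95663176, plus strand), which encodes another short-lived guardian that lymphocytes need throughout life, stood at 40.9, 37.7 and 47.9 CPM in HDAC1-cKO against 50.6, 77.0 and 63.1 CPM in WT. The groups did not overlap, although WT replicate 1 was within 3 CPM of HDAC1-cKO replicate 3. The log2 fold change was -0.59 ± 0.18 (standard error, 95% interval -1.005 to -0.18, edgeR adjusted p = 0.137), and DESeq2 put Mcl1 past the threshold (DESeq2 adjusted p = 0.03). Bcl2l1 (ENSMUSG00000007659, chr2:152780668-152831728, minus strand), which encodes BCL-XL, stood at 24.1, 24.2 and 17.1 CPM in HDAC1-cKO against 35.7, 27.2 and 29.1 CPM in WT, again without overlap. Its log2 fold change was -0.49 ± 0.19 (standard error, edgeR adjusted p = 0.238).

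Bcl2 (ENSMUSG00000057329, chr1:106538178-106714274, minus strand), the founding member and a survival factor of naive and memory T cells, was uneven among HDAC1-cKO libraries. It stood at 4.66, 17.5 and 6.86 CPM in HDAC1-cKO replicates 1, 2 and 3 and at 9.31, 8.09 and 6.06 CPM in WT. Replicate 2, the library that stands apart, was the highest of all 6, replicate 1 was below every WT library and replicate 3 was within the WT range. The log2 fold change was 0.31 ± 0.46 with that library and -0.46 ± 0.28 without it (standard error, edgeR adjusted p = 0.801 and 0.425). The direction of Bcl2 therefore rests on 1 library. Bcl2 transcripts share 5.25% of their 50-base stretches with other genes, and 6.09% of its exon bases are also exon of an antisense gene, which held at most 18 counts in any library.

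Among proapoptotic members, Bax and Bid had higher levels in every HDAC1-cKO library than in any WT library but missed the threshold over all genes. Bax (ENSMUSG00000003873, chr7:45461697-45466898, minus strand), a pore-forming effector, stood at 145, 197 and 143 CPM in HDAC1-cKO against 103, 100.1 and 98.1 CPM in WT. The WT libraries were within 5 CPM of each other, and HDAC1-cKO replicate 2 was well above the rest. The means were 162 ± 30.6 and 100.3 ± 2.35 CPM (SD, n = 3), a log2 fold change of 0.69 ± 0.14 (standard error, 95% interval 0.36 to 1.02, edgeR adjusted p = 0.0579). The longest Bax transcript has a GC content of 63.6%, the highest among the members, against 44.1 to 44.6% in the Bcl2a1 copies. Without HDAC1-cKO replicate 2, the library with the GC trend, the log2 fold change of Bax was 0.51 and passed the threshold (edgeR adjusted p = 0.0213). With offsets that removed each library's trend with GC content and transcript length it was 0.47 (edgeR adjusted p = 0.0381). With these offsets and the replicate number as a block, Bax missed the threshold (edgeR adjusted p = 0.0695). Without any 1 library, the edgeR adjusted p of Bax ran from 0.0213 to 0.198.

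Bid (ENSMUSG00000004446, chr6:120891930-120916853, minus strand), whose product is cut by caspase 8 and then links death receptors to mitochondria, stood at 47.8, 48.0 and 38.6 CPM in HDAC1-cKO against 30.5, 21.8 and 25.5 CPM in WT. The lowest HDAC1-cKO library was above the highest WT library. The log2 fold change was 0.79 ± 0.17 (standard error, 95% interval 0.40 to 1.18, edgeR adjusted p = 0.0605). Without any 1 library, the edgeR adjusted p of Bid ran from 0.0675 to 0.2. Opposite-strand exons of Bcl2l13 cover 17.7% of the exon bases of Bid, and without strand information reads there cannot be told apart. Bcl2l13 held 456 to 1657 counts per library, against 788 to 1795 for Bid. By DESeq2 and by limma-voom with sample weights, Bax and Bid were both past the threshold (DESeq2 adjusted p = 0.000782 and 0.000795, limma-voom adjusted p = 0.0108 and 0.0172).

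Bcl2l11, which encodes BIM, the BH3-only protein that removes T cells after an immune response, and Bak1, the other effector, were low. Bcl2l11 (ENSMUSG00000027381, chr2:128126038-128162547, plus strand) stood at 2.98, 3.75 and 3.09 CPM in HDAC1-cKO against 4.63, 6.01 and 5.21 CPM in WT, without overlap. It differed by -0.69 ± 0.24 on the log2 scale (standard error, edgeR adjusted p = 0.188), the direction opposite to that of Bid. Bak1 (ENSMUSG00000057789, chr17:27019810-27029009, minus strand) stood at 4.63, 4.55 and 2.45 CPM in HDAC1-cKO against 3.42, 4.07 and 6.00 CPM in WT, with overlapping groups and a difference of -0.20 ± 0.34 (standard error, edgeR adjusted p = 0.828, 95% interval -0.99 to 0.58). Opposite-strand exons of Ggnbp1 cover 25.5% of the exon bases of Bak1. Genes of that name held at most 21 counts in any library.

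Across the 10 members, the groups did not overlap in 8, of which 6 were lower and 2 higher in HDAC1-cKO. The Bcl2a1 copies are among the 6 and, as they share most of their sequence, are not independent of each other. The same held for 24.6% of all tested genes (11.8% lower and 12.7% higher). The same 8 members had an unadjusted edgeR p under 0.05, 2 higher and 6 lower, as did 17% of all tested genes (8.62% higher and 8.39% lower), and the other 2 were Bcl2 and Bak1. The median log2 fold change was -0.54 over the members, -0.20 over the 7 without the Bcl2a1 copies and -0.00 over all tested genes.

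Levels of different genes can be compared only per length, on the deposited FPKM scale (fragments per kilobase of transcript, scaled for depth). In WT the order was Bcl2a1d (247 ± 19.4 FPKM), Bax (114 ± 2.201), Bcl2a1b (57.1 ± 5.20), Bcl2a1a (25.8 ± 2.52), Mcl1 (18.4 ± 3.84), Bid (11.7 ± 1.93), Bcl2l1 (7.79 ± 1.12), Bak1 (1.87 ± 0.566), Bcl2 (0.844 ± 0.174) and Bcl2l11 (0.758 ± 0.101; SD, n = 3). On this scale, only the last 2 had overlapping libraries. In HDAC1-cKO, Bax led with 184 ± 34.3 FPKM, followed by Bcl2a1d with 93.5 ± 9.84 FPKM. Then came Bcl2a1b and Bid, which overlapped at 22.1 ± 1.90 and 20.2 ± 2.39 FPKM, and Mcl1 at 12.2 ± 1.52 FPKM stood above Bcl2a1a at 9.65 ± 0.457 FPKM. At the low end Bak1 overlapped Bcl2, and Bcl2 overlapped Bcl2l11.

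How far Bax stood from Bcl2a1d depends on the length used for it. It also depends on how reads that fit several Bcl2a1 copies were counted, which is not given. The deposited FPKM of Bax rest on 867 bases, although its annotated exons cover 1576, whereas those of the Bcl2a1 copies rest on all their exon bases (817 to 863). With all annotated exon bases as the length, Bax stood at 101 ± 18.9 and Bcl2a1d at 93.5 ± 9.84 FPKM in HDAC1-cKO, with overlapping libraries, and at 63.0 ± 1.21 and 247 ± 19.4 FPKM in WT (SD, n = 3). Bax kept its places, the highest in HDAC1-cKO and next to Bcl2a1d in WT. The deposited FPKM of Bid rest on 2189 bases, although its annotated exons cover 3550. With all of them, Bid stood at 12.4 ± 1.48 FPKM in HDAC1-cKO, where it overlapped Mcl1 and lay below Bcl2a1b in every library. In WT, Bid then stood at 7.22 ± 1.19 FPKM and overlapped Bcl2l1 at 6.61 ± 0.946 FPKM (SD, n = 3). Which isoforms the cells used was not tested.

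Summed by role, the antiapoptotic members were lower and the effectors higher in HDAC1-cKO. The Bcl2a1 copies together stood at 117, 138 and 120 FPKM in HDAC1-cKO and 361, 316 and 312 FPKM in WT. Bcl2, Bcl2l1 and Mcl1 together stood at 18.4, 18.9 and 18.9 FPKM against 24.6, 30.1 and 26.4 FPKM. The Bcl2a1 copies thus made up 86.9 ± 0.92% of the summed antiapoptotic level in HDAC1-cKO and 92.4 ± 1.15% in WT (SD, n = 3), without overlap. Without division by length, in CPM, these shares were 59.5 ± 0.59% and 73.5 ± 2.87%. Bax and Bak1 together stood at 167, 225 and 164 FPKM in HDAC1-cKO and 118, 116 and 115 FPKM in WT, almost all of it Bax.

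The ratio of the summed antiapoptotic level to that of Bax and Bak1 was 0.813, 0.698 and 0.848 in HDAC1-cKO and 3.26, 2.99 and 2.95 in WT. The mean was 3.90-fold higher in WT, 3.31-fold higher on the CPM scale and 3.88-fold higher with all exon bases as the length. On the last scale the HDAC1-cKO ratios were 1.25 to 1.53, and in CPM they were 1.14, 0.99 and 1.21 in replicates 1, 2 and 3. Which sum was larger in HDAC1-cKO therefore depends on the scale and the length used. It also depends on how reads that fit several Bcl2a1 copies were counted. If such reads were discarded, the Bcl2a1 levels, and the sums, shares and ratios formed from them, are too low in both groups. No p is given for these sums, which were formed from genes named with results known, and transcript levels are not levels of protein.

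**Figure D4:**
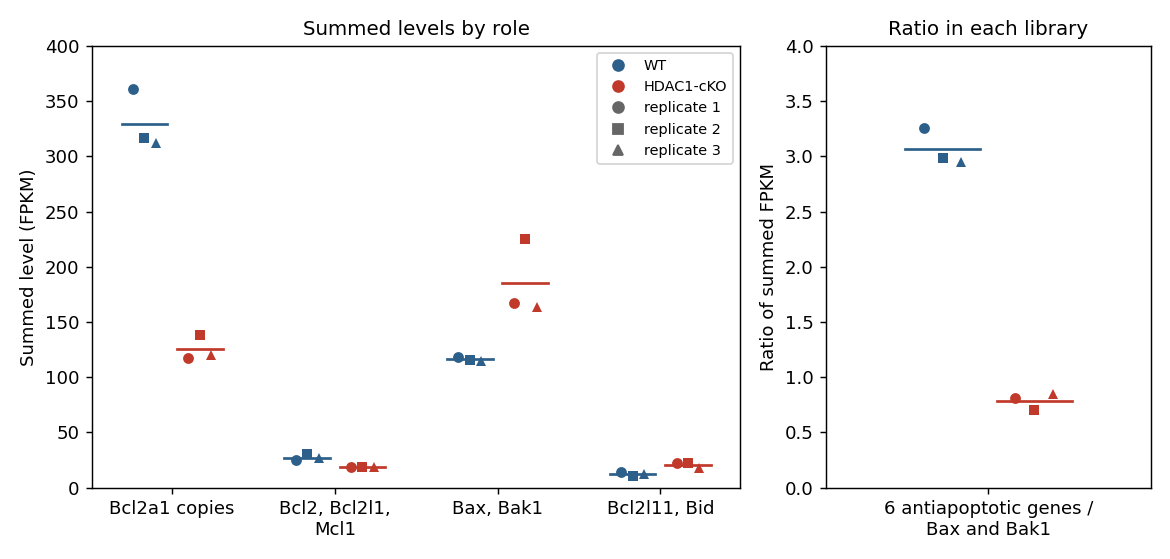
Left, summed FPKM of the Bcl2a1 copies, of Bcl2, Bcl2l1 and Mcl1, of the effectors and of the BH3-only genes in each library, with bars for group means. Right, the ratio of the summed antiapoptotic level to that of Bax and Bak1. On the deposited FPKM it is below 1 in the 3 HDAC1-cKO libraries and between 2.95 and 3.26 in WT. With all exon bases as the length it is 1.25 to 1.53 in HDAC1-cKO.

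Genes around the family were read from 6 lists with 68 genes, of which 64 were tested. In all, 2 were called lower and 0 higher, beside 1.97% of all tested genes. At an unadjusted edgeR p under 0.05, 3 of the 64 were higher and 8 lower, a share near the 17% of all tested genes. DESeq2 called 2 higher and 7 lower, beside 9.81% of all genes in either direction, and limma-voom 1 higher and 7 lower, beside 10.2%. Without HDAC1-cKO replicate 2, edgeR called 0 higher and 7 lower, beside 4.48% of all tested genes in either direction (1.87% higher and 2.62% lower). Both genes called lower were kinases of the list of survival cytokine receptors and STAT5. Jak3, which signals from the common gamma chain, fell from 113 ± 3.69 to 56.7 ± 11.4 CPM (SD, n = 3), a log2 fold change of -0.9998 ± 0.15 (standard error, edgeR adjusted p = 0.0275). Jak1, which pairs with it on receptors for IL-2 and IL-7, fell from 258 ± 10.1 to 184 ± 1.71 CPM, a log2 fold change of -0.48 ± 0.09 (standard error, edgeR adjusted p = 0.0435). The list's median was -0.32, with 7 of 10 members negative. Without any 1 library this median ran from -0.357 to -0.212. Il2rb, a chain of the receptors for IL-2 and IL-15, was the further gene with an unadjusted edgeR p under 0.05 and was called lower by DESeq2 and limma-voom. Il2rg, the common gamma chain, was called lower by limma-voom and, without HDAC1-cKO replicate 2, by edgeR. These 2 are named for those calls, after their values were seen. Leaving out a single library ended both calls, except when that library was HDAC1-cKO replicate 2, with edgeR adjusted p up to 0.11 for Jak3 and 0.168 for Jak1. That of Jak1 also ended with upper quartile scaling and on FPKM (adjusted p from 0.052 to 0.0556).

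In the list of NF-kB subunits and targets 11 of 14 log2 fold changes were negative, with a median of -0.29, but edgeR called 0. Without any 1 library this median ran from -0.488 to -0.167, and the median of all tested genes was -0.00. At an unadjusted p under 0.05 edgeR found 1, Traf3, DESeq2 called 1 (Traf3) and limma-voom 1 (Nfkb2). The shares of all genes, in either direction, were 17, 9.81 and 10.2%. Traf3, which restrains NF-kB signalling, stood at 15.0 ± 2.72 CPM in HDAC1-cKO against 23.1 ± 1.25 CPM in WT (SD, n = 3; adjusted p = 0.11 by edgeR). Tnfaip3, a feedback inhibitor of the same pathway, stood at 19.6 ± 5.17 and 25.7 ± 2.87 CPM (edgeR adjusted p = 0.412). Without HDAC1-cKO replicate 2, Nfkb2 and Nfkbia were called lower, as were 2.62% of all tested genes.

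Downstream of mitochondria, edgeR called 0 of 17 genes, 4 had an unadjusted p under 0.05 (Casp9, Endog, Birc2 and Birc3; 17% of all tested genes did), and DESeq2 and limma-voom each called 2 lower and 1 higher, where they called 9.81 and 10.2% of all genes. Birc2, which encodes the inhibitor of apoptosis cIAP1, stood at 24.1 ± 0.909 CPM in HDAC1-cKO against 38.2 ± 4.01 CPM in WT (SD, n = 3), without overlap (edgeR adjusted p = 0.0535). Endog, a mitochondrial nuclease, stood at 16.97 ± 3.90 and 8.11 ± 2.32 CPM (edgeR adjusted p = 0.0868). The median of this list was -0.00. Without HDAC1-cKO replicate 2, Birc2 and Birc3 were called lower, as were 2.62% of all tested genes.

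Of 8 other BH3-only genes, 6 were tested and edgeR called 0. Bnip3, a mitophagy receptor, stood at 4.17 ± 1.03 CPM in HDAC1-cKO against 8.43 ± 1.92 CPM in WT (SD, n = 3; adjusted p = 0.112 by edgeR), was the 1 gene with an unadjusted p under 0.05, and was called lower by DESeq2 and not by limma-voom. Bik stood at 17.7 ± 2.65 and 22.5 ± 4.88 CPM with overlapping groups (edgeR adjusted p = 0.46). Among 8 further multidomain and BCL2-like genes, 6 were tested, edgeR, DESeq2 and limma-voom each called 0, and Bcl2a1c was the 1 with an unadjusted edgeR p under 0.05. Bcl2l12 stood at 25.7 ± 4.83 and 20.99 ± 0.852 CPM (edgeR adjusted p = 0.435).

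Of 11 regulators of BIM, MCL1 and p53, edgeR called 0. Dynll2, a dynein light chain that can tether BH3-only proteins, stood at 23.4 ± 4.53 CPM in HDAC1-cKO against 14.2 ± 3.42 CPM in WT (SD, n = 3; adjusted p = 0.148 by edgeR), was the 1 with an unadjusted p under 0.05, and was called higher by DESeq2 and not by limma-voom. Huwe1, a ubiquitin ligase of MCL1, stood at 41.6 ± 2.97 and 48.4 ± 4.08 CPM (edgeR adjusted p = 0.452).

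The 5 genes whose log2 CPM followed the summed Bcl2a1 copies most closely across the 6 libraries, among 7429 candidates with a mean of at least 10 CPM, were Samd9l (Pearson r = 0.996), Prkch (0.994), Jak1 (0.993), Mcur1 (0.991) and Lxn (0.990). These values share their libraries and the step between genotypes, and serve as a description only. Samd9l, an interferon-inducible gene, was at 34.9% of its WT level in HDAC1-cKO, close to the 38.1% of the Bcl2a1 sum, whereas the others were at 63.4 to 77.1%. The level of Samd9l was 18.7, 21.3 and 18.7 CPM in HDAC1-cKO against 59.4, 51.2 and 57.7 CPM in WT. Like Bcl2a1b and Bcl2a1d, it was highest in HDAC1-cKO replicate 2 and WT replicate 1 of their groups. As Samd9l was picked for following the sum, this likeness is no further result.

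**Figure D5:**
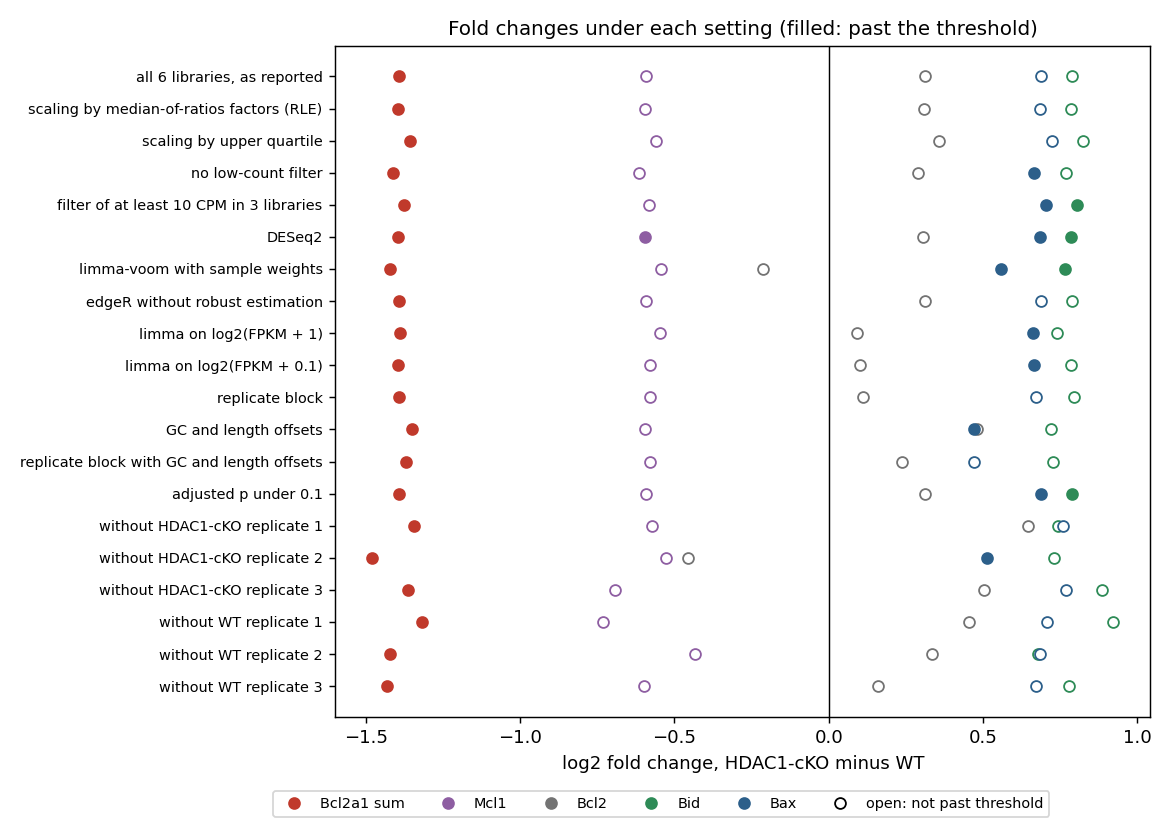
Log2 fold change, HDAC1-cKO minus WT, of the summed Bcl2a1 copies, Mcl1, Bcl2, Bid and Bax under each setting, filled where past the threshold of that setting. The Bcl2a1 sum stays between -1.48 and -1.32 and is filled in each setting shown, Bax and Bid stay positive with mixed calls, and Bcl2 lies on either side of 0.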

How the data were processed

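For 55536 genes in 6 libraries, the authors deposited a table of unnormalized integer counts and a table of FPKM values. Per the labels' protocols, polyadenylated RNA was amplified by Smart-seq2 and made into Nextera XT libraries and sequenced as 50-base single reads; strand and molecular identifiers are not part of that protocol. Per the submitters' processing notes, STAR 2.5.2b, Picard 2.19.2, R 3.6.1 and DESeq2 1.24.0 were used, and GRCm38/mm10 and GRCh38/hg38 are named. Neither the read counter nor its treatment of reads that fit several genes is given in the sources used here. All gene identifiers match GENCODE M21. The deposited FPKM equal counts divided by median-of-ratios factors and 1 length per gene.

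Counts were filtered by filterByExpr (15519 genes), scaled by TMM and tested with edgeR 4.0.16 (R 4.3.3), robust quasi-likelihood F test, genotype as the term, adjusted over all tested genes. CPM use TMM-scaled totals. Standard errors come from the fold change and its F value. The fit was tested on simulated data. The 10 members, the lists and the tests were chosen with earlier results of these data known. Named are all members, up to 4 called genes per list or else the 2 with the lowest p, and the 5 genes most like the Bcl2a1 sum. Alternatives used DESeq2 1.42.0 and limma 3.58.1. Figures were drawn with matplotlib 3.10.9. Each of the 6 columns matched 1 sample. Library pairs differed by 12 to 158 in chi-square per degree of freedom, so no pair was 1 library deposited again. Counting precision is limited by the absence of molecular identifiers.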

Additional observations from a re-analysis of the deposited data

How the results depend on the processing

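The summed Bcl2a1 copies and Bcl2a1d stayed lower and past the threshold in all 19 alternatives, and the sum ran from -1.48 to -1.32 on the log2 scale. Members called lower numbered 1 to 3 without 1 library, the 1 being Bcl2a1d without HDAC1-cKO replicate 3, and 4 with DESeq2, which added Mcl1. Members called higher numbered 0 to 1 without 1 library; they were 2 with DESeq2, with limma-voom, with the 10 CPM filter and at adjusted p under 0.1, and 1 with no low-count filter, on FPKM with either pseudocount (1 or 0.1) and with GC and length offsets. The log2 fold change of Bcl2 turned to -0.212 with limma-voom, and leaving out 1 library moved it between -0.455 (HDAC1-cKO replicate 2) and 0.646 (HDAC1-cKO replicate 1). That of Bak1 moved between -0.367 (WT replicate 1 left out) and 0.058 (WT replicate 3), and was 0.032 when HDAC1-cKO replicate 3 was left out. The cause was not tested. With the 10 CPM filter Bcl2, Bcl2l11, Bak1 and Bcl2a1c had no value.

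Over all genes, 152 were higher and 154 lower. The numbers were 707 and 667 with DESeq2, 770 and 819 with limma-voom, 405 and 413 at adjusted p under 0.1, and 16 to 290 higher and 13 to 406 lower without 1 library, most without HDAC1-cKO replicate 2. Lower genes numbered 243 with no low-count filter and 251 with GC and length offsets. With the replicate number as a block, 34 were higher and 31 lower, and 68 and 96 with the block and the offsets. Same-numbered libraries did not deviate together (correlations 0.024, -0.002 and -0.042). With 3 libraries per group, and HDAC1-cKO replicate 2 standing apart, these correlations cannot exclude a pairing by number. Under the block the log2 fold change of the Bcl2a1 sum was -1.39 (edgeR adjusted p = 0.0217). All 3 copies stayed called, and the Jak1 and Jak3 calls ended (edgeR adjusted p = 0.114 and 0.0575). Counts per library were as low as 50 for Bak1 and 63 for Bcl2l11, which limits the precision of these members.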
